A study of Mus musculus with 8 samples.

Results

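Pax5sz2 is a culture of bone marrow-derived mouse pro-B and pre-B cells labelled as carrying the reverse tetracycline transactivator rtTA and no Pax5 transgene. Its RNA was compared with RNA of clone 4 cells that carry a human Pax5 transgene (huPax5) and received no doxycycline (0 ng/ml, called naive in the labels). The comparison was made on 2 arrays with the dyes exchanged, which are all the arrays labelled with these RNAs among the 8 arrays of the study. The other 6 arrays compare clone 4 cells given 10, 300 or 1000 ng/ml doxycycline with the same control label, 2 arrays per dose. All of these cells lack the endogenous gene (Pax5-/-) and were grown in interleukin 7 on irradiated OP9 stromal cells. Pax5sz2 is labelled as treated with doxycycline, and in place of a dose its labels say that the cells received rtTA alone. Per the labels' protocols rtTA and huPax5 were brought in by separate retroviral vectors, selected with histidinol and puromycin. Clone 4 is 1 clone, no replicate cultures are labelled, and Pax5sz2 differs from its control in origin, in the transgene and in doxycycline at once, so that these cannot be told apart within the 2 arrays.

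Pax5 is the transcription factor that commits a lymphoid progenitor to the B lineage. Cells that lack it stop at the pro-B stage, grow in interleukin 7, transcribe many early B-lineage genes and keep genes of myeloid, T and natural killer cells that Pax5 normally represses. Upstream of it, E2A, Ebf1 and Foxo1 open the B-lineage programme, and the surrogate light chain built from the products of Vpreb1, Vpreb2 and Igll1 is the textbook marker of that programme before a rearranged light chain is made.

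Levels below are log2 channel intensities after background correction and scaling, and ratios are log2 of Pax5sz2 over control, averaged over the 2 arrays and given with the SD of those arrays, which is technical. In array 1 Pax5sz2 was in Cy5 and in array 2 it was in Cy3. In the Pax5sz2 channel 73.6% and 65.8% of spots passed the call of well above background, and in the control channel 67.6% and 62.5% did. The 2 arrays correlated with r = 0.924 across the 18597 features tested, where features are not independent replicates. The median SD of a ratio was 0.0957 and the 95th percentile was 0.298. A feature was called higher or lower when its ratio was at least 2-fold on both arrays in 1 direction. This size rule is not a test, because 1 RNA was set against 1 RNA. In all, 467 features were higher in Pax5sz2 (2.51% of those tested) and 564 were lower (3.03%), 1031 in all (5.54%), and 0 features were past 2-fold with opposite signs on the 2 arrays. Of the 467 higher features, 34 were not well above background in the control and were tested through Pax5sz2 alone. Of the 564 lower ones, 6 were not well above background in Pax5sz2 and were tested through the control alone. The median ratio of all tested features was 0.03. Within 0.1 of the threshold lay 217 features just inside and 262 just outside. Median centring in place of loess normalization left 479 higher and 202 lower features, so the share of higher calls went from 45.3% to 70.3%. With Agilent's processed signals the folds of 39 of 139 named genes moved by over 1.5 times, all 39 away from 0, and with the mean over a gene's probes 29 did, 28 of them toward 0.

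**Figure D1:**
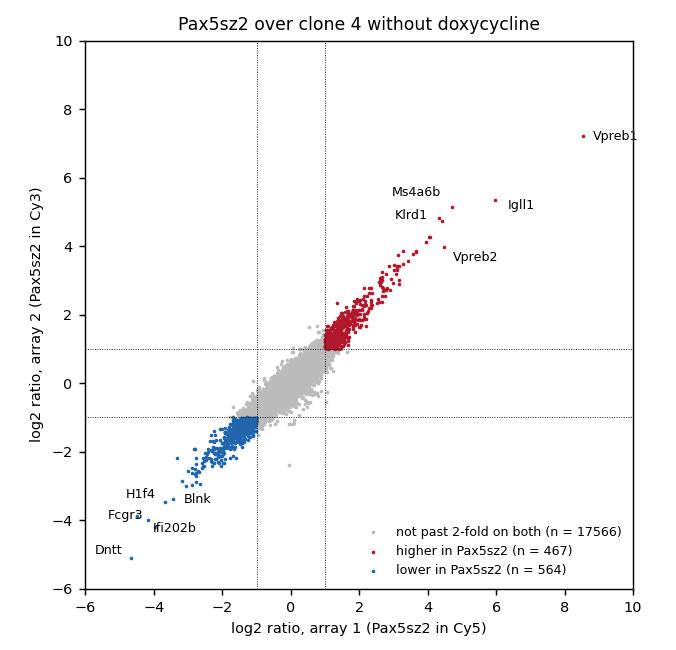
Each point is 1 of the 18597 tested features, with its log2 ratio of Pax5sz2 over control on array 1 (x axis) and on array 2 (y axis), and dotted lines mark 2-fold. The 467 red points are higher on both arrays and the 564 blue points lower on both, and Vpreb1, Igll1 and Dntt lie at the ends.

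Pax5 itself was read by 2 mouse probes. The probe for the coding transcript (mm8 chr4:44558582-44591136, minus strand) had levels of 6.45 and 6.37 in Pax5sz2 and of 6.70 and 6.67 in the control, a ratio of -0.27 ± 0.032. The probe for a complementary DNA clone at the locus (mm8 chr4:44546164-44546223) had levels of 10.34 and 10.10 against 7.19 and 7.21, a ratio of 3.02 ± 0.19, beside 2.66 and 2.35 at 10 and 300 ng/ml. These probes were designed for the mouse gene, which is knocked out here, and the transgene is human, so neither checks the labels.

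All 3 surrogate light chain genes were higher in Pax5sz2, and Vpreb1 and Igll1 had the highest ratios of all named genes. Vpreb1, which encodes its variable-like chain, had a level of 17.84 and 17.79 in Pax5sz2 and of 9.29 and 10.57 in the control, a ratio of 7.88 ± 0.94, or 236-fold. The 2 arrays gave 8.55 and 7.22 for it, so that either array alone moves its fold by over 1.5 times. Igll1, which encodes lambda 5, the constant-like chain, had 14.65 and 14.01 against 8.69 and 8.66, a ratio of 5.65 ± 0.44, and its other detected probe gave 0.98. Vpreb2, the near copy of Vpreb1, had 13.25 and 13.19 against 8.78 and 9.21, a ratio of 4.23 ± 0.35. The Pax5sz2 readings of all 3 genes lay above both control readings. In clone 4 with doxycycline the same 3 genes had ratios between -0.11 and 0.18 at 10 and 300 ng/ml. For Vpreb1 and Igll1 neither the treated nor the control RNA was well above background there. On those arrays RNA of the same control label read 6.10 and 6.08 for Vpreb1, 6.22 and 6.24 for Igll1 and 6.59 and 6.57 for Vpreb2, where on the Pax5sz2 arrays it averaged 9.93, 8.68 and 9.0. The control readings on the Pax5sz2 arrays were thus the higher ones for all 3 genes, and the part of that difference in these ratios was not tested. Iglv1, a variable segment of the lambda light chain, was also higher, at 8.95 and 8.89 against 6.94 and 6.57 (ratio 2.17 ± 0.22), with 0.07 and 0.12 at 10 and 300 ng/ml. The mean over all probes of Iglv1 gave 1.01, which did not pass the size on both arrays. Vpreb3, a chaperone-like relative known as a Pax5-activated gene, went the other way with a ratio of -1.28 ± 0.11, which fell short of the size under median centring. In bulk RNA, here and in all that follows, fewer cells of a type and less RNA per cell cannot be told apart.

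The sequences upstream of these 3 genes are shown because the genes are among the 20 highest and Ebf1 and E2A, which are known to act at surrogate light chain promoters, were measured on the same arrays (Tcf3, which encodes E2A, read 0.29). They are from RefSeq on GRCm38.p6 and end at the base before the annotated start, except that the Vpreb2 stretch ends further upstream, where its sequence lines up with that of Vpreb1. They cover chr16:16863986-16864235 (minus strand) for Igll1, chr16:16869256-16869361 (minus strand) for Vpreb1 and chr16:17980315-17980420 (plus strand) for Vpreb2. Capitals mark the E-box CAGGTG or its reverse complement CACCTG and, in Igll1, the half-site pair CCCNNGGG read by Ebf1.
Igll1: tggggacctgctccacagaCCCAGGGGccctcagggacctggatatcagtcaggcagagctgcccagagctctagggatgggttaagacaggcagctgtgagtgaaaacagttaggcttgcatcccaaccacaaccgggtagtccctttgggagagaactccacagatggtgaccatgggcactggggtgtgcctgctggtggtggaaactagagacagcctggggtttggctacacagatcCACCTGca
Vpreb1: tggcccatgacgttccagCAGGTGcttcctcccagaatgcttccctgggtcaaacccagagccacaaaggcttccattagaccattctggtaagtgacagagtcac
Vpreb2: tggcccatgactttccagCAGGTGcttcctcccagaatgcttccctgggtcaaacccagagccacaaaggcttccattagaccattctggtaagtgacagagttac
Within the 106 bases shown, Vpreb1 and Vpreb2 had the same base at 104 positions and differed by G12T and C104T, counted from 1 at the 5′ end of the Vpreb1 stretch, with the Vpreb1 base first. Because the copies are this alike and each is read by 1 probe, signal of Vpreb1 RNA on the Vpreb2 probe, or the reverse, cannot be told apart. On either strand, 17.2% of the 32851 promoter windows of 250 bases in the RefSeq table hold CAGGTG and 11.8% hold CCCNNGGG, so both are common strings and a match describes the letters only.

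Most neighbours of these genes on chromosome 16 did not pass the size. Igll1 (mm8 chr16:16774574-16774633), Vpreb1 (chr16:16782029-16782088) and Top3b (chr16:16806464-16806523) are next to each other among the tested features and were all higher, with Top3b, a DNA topoisomerase gene, at 1.38 ± 0.095. Vpreb2 lies at chr16:17894159-17894305 and Iglv1 at chr16:18975296-18975355. In the window chr16:16524574-19225355, which runs 250000 bases past the outer probes, 62 features were tested, 9 were higher, 1 was lower and 52 did not pass. The higher ones are 14.5% of the 62, against 2.51% over all features, and the median ratio of the 62 was 0.15, against 0.03. The window was laid around Vpreb1, Igll1, Vpreb2 and Iglv1, and without these 4 it held 5 higher features of 58 (8.62%), with a median of 0.12. The 4 other higher features besides these and Top3b were Klhl22 (1.03), Prodh (1.65), the locus LOC207685 (3.74) and the transcript 2010309G21Rik (2.83). LOC207685 and 2010309G21Rik lie beside Iglv1, and whether they are lambda light chain features themselves was not tested. The 58 features may thus still hold such features. Klhl22 did not pass under median centring.

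**Figure D2:**
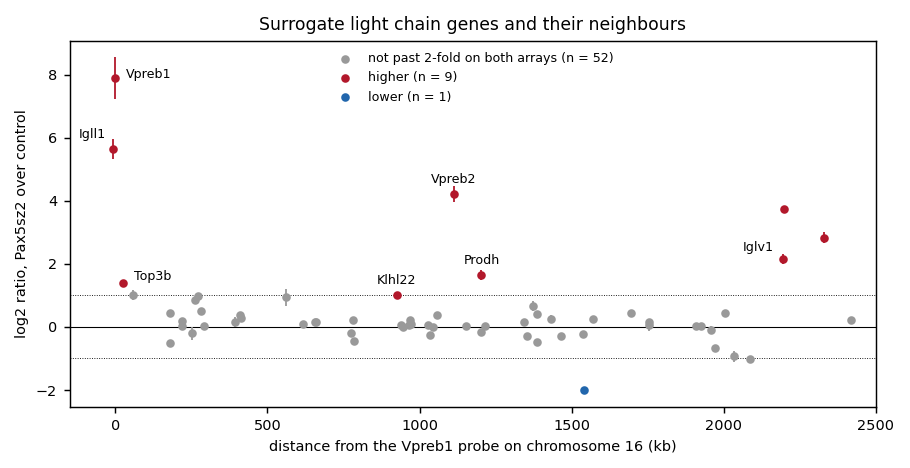
Log2 ratio of Pax5sz2 over control (y axis) against distance in kb from the Vpreb1 probe on chromosome 16 (x axis) for the 62 tested features of the window, with bars spanning the 2 arrays and dotted lines at 2-fold. The higher features (red) stand apart at Igll1 with Vpreb1, at Vpreb2 and at Iglv1, and the 52 grey features did not pass.

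Other genes of the early B programme were lower in Pax5sz2. The lowest gene of the whole comparison was Dntt, the template-independent DNA polymerase that adds nucleotides at antibody gene joints, with 9.74 and 9.35 in Pax5sz2 against 14.40 and 14.46 in the control. Its ratio was -4.89 ± 0.32, its other probes gave -4.09 and -3.05, and at 10 ng/ml it read -0.99. Blnk, the adaptor that couples the pre-B cell receptor to its kinases and a gene that Pax5 activates, had 8.68 and 8.55 against 12.11 and 11.94, a ratio of -3.41 ± 0.03. At 10 and 300 ng/ml Blnk had ratios of -0.90 and 2.62, so that at 300 ng/ml it lay on the opposite side. The transcription factor genes Foxo1 (-1.66 ± 0.24), Ebf1 (-1.58 ± 0.33), Lef1 (-1.48 ± 0.0078) and Sox4 (-1.33 ± 0.10) were lower on both arrays. Under median centring Foxo1, Lef1 and Sox4 no longer passed the size, and Ebf1 did not pass with the mean over its probes (its other probe read -0.25). Other B-lineage genes did not pass the size, with Cd79b at -0.39, Rag1 at -0.40, Rag2 at -0.35 and Il7r, the interleukin 7 receptor, at 0.61. Cd79b had levels of 15.14 and 15.45 in Pax5sz2 and 15.64 and 15.74 in the control, well above background in both. Of 22 tested genes of a pro-B and pre-B list, 2 were higher (9.09%) and 4 lower (18.2%), against 2.51% and 3.03% over all features, with a median of -0.21 that turned positive under median centring. Of 22 Pax5-activated genes, 2 were higher (Ikzf3 1.31, Id3 1.25; 9.09%) and 3 lower (Blnk, Lef1, Vpreb3; 13.6%), with a median of 0.01, and at 300 ng/ml 8 were higher and 0 lower, with a median of 0.74, where 1.41% and 2.46% of all features were. Id3 encodes an inhibitor of E proteins and Ikzf3 the Ikaros relative Aiolos, whose 2 other probes read 0.00 and 0.25, so that the mean over probes did not pass. Of 18 Pax5-repressed genes, 2 were higher (Ccr2 and Jchain) and 4 lower (Notch1 -1.61, Ccl9 -1.54, Lilrb4a -1.19 and Fcer1g -1.09), which is 11.1% and 22.2%, with a median of 0.04. Under median centring these 4 lower genes and Jchain did not pass on both arrays. At 300 ng/ml 0 of the list were higher and 7 lower, against the same 1.41% and 2.46%, with a median of -0.98. The 2 lists thus had medians near that of all features in Pax5sz2, and apart from it at 300 ng/ml. None of the 15 tested mature B cell genes passed the size. All 9 markers of B cell precursors were well above background in both RNAs, with summed levels of 18.25 and 18.21 in Pax5sz2 and 16.44 and 16.51 in the control. Without Vpreb1 these sums were 16.23 on both arrays in Pax5sz2 and 16.43 and 16.49 in the control, so that the higher sum of Pax5sz2 rests on Vpreb1. This and the other sums without 1 marker leave out the marker that differs most between the RNAs, and were added after the values were seen.

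**Figure D3:**
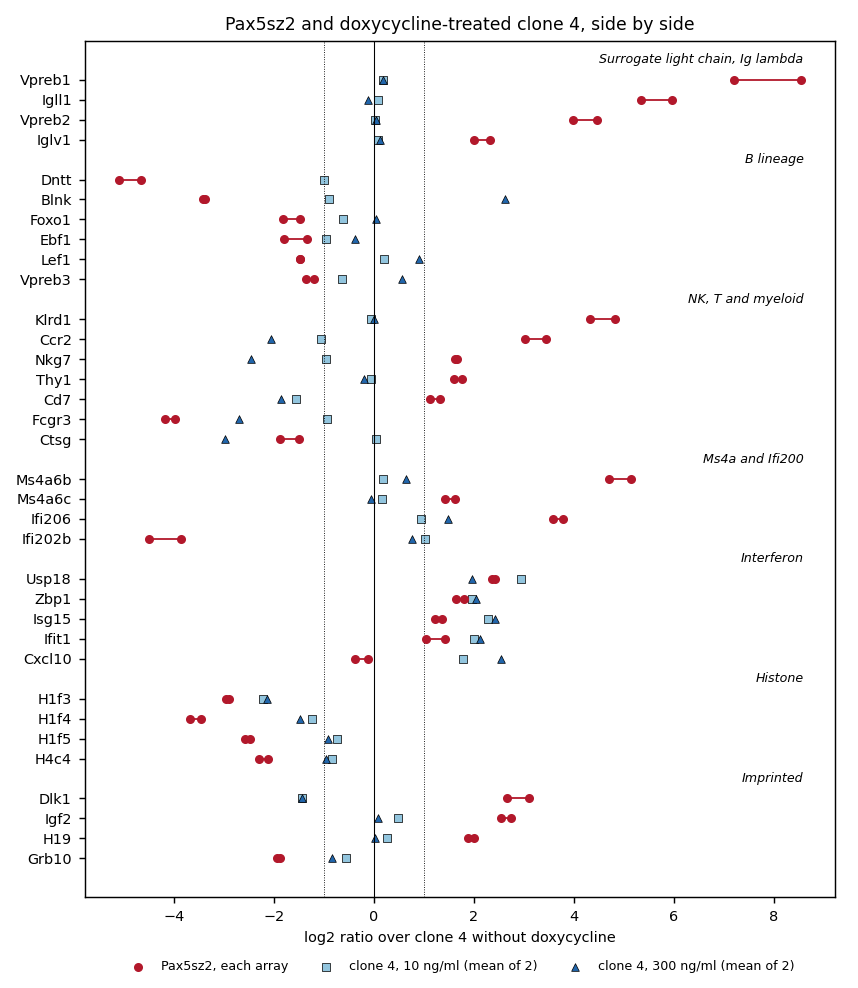
Log2 ratios over clone 4 without doxycycline for genes in 7 groups, with each of the 2 Pax5sz2 arrays as a red point joined by a line and the mean of 2 arrays at 10 ng/ml (light square) and 300 ng/ml (dark triangle) of clone 4. Vpreb1, Igll1 and Vpreb2 stand far right in Pax5sz2 and at 0 in treated clone 4, Blnk lies at -3.41 and 2.62 at 300 ng/ml, and the 5 interferon genes drawn lie right of 0 in all 3 comparisons, except that Cxcl10 lies at -0.25 in Pax5sz2.

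A few genes of natural killer and T cells were higher. Klrd1, which encodes CD94, a receptor chain of natural killer cells, had 11.14 and 11.21 in Pax5sz2 against 6.81 and 6.38 in the control, a ratio of 4.58 ± 0.35, with -0.05 and 0.00 at 10 and 300 ng/ml, where no RNA was well above background for it. With processed signals the Klrd1 ratio was 6.90. Nkg7, a granule membrane gene, read 1.64 ± 0.033 in Pax5sz2 and -0.96 and -2.46 at the 2 doses. The granzyme gene Gzma read 1.40 ± 0.20, and Ccr9, a homing receptor for gut and thymus, 1.62 ± 0.16. Among T cell genes Thy1 read 1.68 ± 0.11 (its other probe 0.29, and the mean over both short of the size) and Cd7 1.22 ± 0.14, while Cd7 had ratios of -1.57 and -1.86 at 10 and 300 ng/ml. In the natural killer list 3 of 11 tested genes were higher (27.3%) and 0 lower (median 0.09), with 6 above 0 and 4 below 0 on both arrays. In the T cell list 2 of 17 were higher (11.8%) and 0 lower (median 0.14). Over all features 2.51% were higher and 3.03% lower. The defining natural killer genes Ncr1 and Prf1 and the T cell gene Cd8a were not well above background in either RNA. The summed log2 level of 4 natural killer markers was 9.03 and 9.08 in Pax5sz2 and 8.72 and 8.69 in the control. Without Gzma it was 8.15 and 8.23 against 8.33 and 8.36, so that the higher sum rests on Gzma. The summed log2 level of the T cell markers was 10.29 and 10.16 in Pax5sz2 and 9.83 and 9.75 in the control, and without Thy1 it was 9.74 and 9.47 against 9.60 and 9.52.

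Of 20 myeloid genes tested, 2 were lower (10%, against 3.03% over all features) and 0 higher (against 2.51%). Fcgr3, an activating Fc receptor of myeloid and natural killer cells, had 8.16 and 8.22 in Pax5sz2 against 12.14 and 12.41 in the control, a ratio of -4.08 ± 0.15, with its other probe at -2.21 and ratios of -0.94 and -2.71 at 10 and 300 ng/ml. The granule protease gene Ctsg read -1.69 ± 0.27, with 0.04 and -2.98 at the doses, and fell short of the size under median centring. The chemokine receptor gene Ccr2, carried by monocytes, went the opposite way, at 11.80 and 12.18 against 8.78 and 8.73 (ratio 3.24 ± 0.30), where the doses had -1.05 and -2.06. Cd44, an adhesion receptor, was lower at -2.65 ± 0.062, and its other probes ranged from -2.72 to -0.10. In the Gimap family of lymphocyte GTPases, a list chosen after its values were seen, Gimap6 (-2.14 ± 0.26) and Gimap5 (-1.86 ± 0.10) passed the size of 6 tested genes (33.3%, against 3.03% lower over all features), and all 6 were below 0 on both arrays. Gimap5 did not pass under median centring or with the mean over its probes. The median of the 6 was -0.61, beside -0.65 and -1.12 at 10 and 300 ng/ml. At these doses 0 and 3 of the 6 were lower, against 1.31% and 2.46% of all features, so the lower ratios are not particular to Pax5sz2. The summed level of 8 myeloid markers was 13.43 and 13.63 in Pax5sz2 and 14.97 and 14.86 in the control. Without Ctsg it was 11.64 and 11.75 against 11.65 and 11.82, so that the lower sum rests on Ctsg, and Csf3r and S100a8 were not well above background in either RNA.

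The Ms4a and Ifi200 families, each encoded in a cluster, held genes far apart in ratio. In the Ms4a family of membrane proteins, 4 of 11 tested genes were higher (36.4%, against 2.51% over all features) and 0 lower (against 3.03%), and the 4 are neighbours among the tested features at mm8 chr19:11493309-11596997. Ms4a6b, at 11.43 and 11.45 against 6.73 and 6.30, had a ratio of 4.92 ± 0.32, with 0.18 and 0.63 at 10 and 300 ng/ml, and with processed signals its ratio was 7.65. Ms4a6c (1.52 ± 0.14), Ms4a4b (1.47 ± 0.26) and Ms4a4c (1.29 ± 0.28) followed, and for Ms4a6c the control was not well above background, which gives at least 2.87-fold. Ms4a6c was thus tested through Pax5sz2 alone, which raises the share of higher genes in the family. The B cell member Ms4a1, which encodes CD20, read 0.02. Among the Ifi200 genes, a family of interferon-inducible DNA sensors on chromosome 1, 3 of 9 tested were higher (33.3%) and 1 lower (11.1%), beside the same shares over all features. Their median was 0.35, and -0.24 with the mean over probes. The other probes of Ifi204 read -2.88 and -0.26, and those of Ifi203 -1.80 and -0.04. Ifi206 (11.21 and 11.37 against 7.63 and 7.6, ratio 3.68 ± 0.14), Ifi209 (2.47 ± 0.24) and Ifi214 (1.82 ± 0.018) were the higher ones. Ifi202b was not well above background in Pax5sz2, at 5.32 and 6.17 against 9.82 and 10.04, and was at least 15.7-fold lower (log2 ratio -4.18, and -8.18 with processed signals). At the 2 doses Ifi202b had ratios of 1.02 and 0.77 and Ifi206 of 0.94 and 1.49. Members of both families are alike in sequence and some are read by 1 probe, so cross-reading between copies was not tested. Both lists were chosen after their values were seen.

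Interferon response genes were higher in part. Of 27 tested, 8 were higher (29.6%, against 2.51% over all features) and 0 lower, with a median of 0.46, and 20 were above 0 on both arrays. At 10 and 300 ng/ml, against the same control label, 11 and 12 of the list were higher and the medians were 1.01 and 1.09, where 0.651% and 1.41% of all features were higher. Usp18, the protease that removes ISG15 from proteins, had 11.69 and 11.64 against 9.34 and 9.21 (ratio 2.39 ± 0.050), with 2.94 and 1.95 at the doses. The DNA sensor gene Zbp1 read 1.73 ± 0.12, Rtp4 1.54 ± 0.29, and the ubiquitin-like modifier gene Isg15 1.30 ± 0.10, with 2.27 and 2.42 at the doses. Ifit1 (1.23 ± 0.27) and Ifit3 (1.09 ± 0.11), whose products bind foreign RNA, had ratios of 2.01 and 2.12 and of 1.94 and 2.32 at the doses. The oligoadenylate synthase-like genes Oasl1 (1.94 ± 0.39) and Oasl2 (1.34 ± 0.29) completed the 8. The members with ratios above 1 at both doses and below 0 in Pax5sz2 were the chemokine gene Cxcl10 at -0.25 (1.77 and 2.54 at the doses), Rsad2, which encodes viperin, at -0.25 (1.11 and 1.46), and Ifi44l at -0.60 (1.01 and 2.84). They were named after their values were seen.

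Stretches upstream of 3 of these genes are shown because Ifit1 and Ifit3 were higher in all 3 comparisons and Rsad2 was not. Capitals mark the interferon-stimulated response element, searched as GAAA followed after any 2 bases by GAAA, or as TTTC with TTTC where it lies on the other strand. They are from RefSeq on GRCm38.p6, at chr19:34640765-34640833 (plus strand) for Ifit1, chr19:34583353-34583436 (plus strand) for Ifit3 and chr12:26456543-26456592 (minus strand) for Rsad2.
Ifit1: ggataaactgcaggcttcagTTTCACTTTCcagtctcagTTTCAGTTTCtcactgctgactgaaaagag
Ifit3: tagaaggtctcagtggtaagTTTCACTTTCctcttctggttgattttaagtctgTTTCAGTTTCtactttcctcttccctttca
Rsad2: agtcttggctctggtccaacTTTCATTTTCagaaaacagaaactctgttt
All 3 hold the element, which 2.98% of the promoter windows do on either strand. Of the 27 tested list genes 18 have a window in the table. The 10 with a match had a median ratio of 0.26, and 3 of them passed the size. The 8 without one had a median of 0.56, and 2 passed. The median was thus the lower one among the genes with these letters.

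GTPase genes known to answer to interferon gamma lay on both sides. Iigp1, an immunity-related GTPase, had 12.69 and 12.19 in Pax5sz2 against 9.26 and 8.63 (ratio 3.49 ± 0.092), with 2.13 and 2.65 at the doses, and its relative Irgm2 read 1.97 ± 0.16. The guanylate-binding gene Gbp8 was lower at -1.17 ± 0.17 (-1.33 and -3.49 at the doses), and did not pass with median centring, processed signals, the series matrix or the mean over probes. Of the 13 GTPase genes 2 were higher (15.4%) and 1 lower (7.69%), against 2.51% and 3.03% over all features, with a median of -0.22 that turned positive under median centring. None of the 15 genes of major histocompatibility class I and antigen processing passed the size, although 11 were below 0 on both arrays, with a median of -0.56. Under median centring this median was -0.04, so that its distance from 0 depends on the normalization. The peptide transporter gene Tap1 (-0.81) and the immunoproteasome gene Psmb8 (-0.77) had the lowest ratios of that list.

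Of 35 tested linker and core histone genes, 10 were lower (28.6%, against 3.03% over all features) and 0 higher. Their median was -0.54, and -0.12 under median centring. At 10 and 300 ng/ml the medians of the list were -0.34 and -0.48. There 2 and 4 genes were lower, against 1.31% and 2.46% of all features, and 1 was higher at each dose, against 0.651% and 1.41%. H1f4, a replication-dependent linker histone gene, had 9.38 and 9.73 against 13.07 and 13.20 (ratio -3.58 ± 0.15), with -1.24 and -1.48 at 10 and 300 ng/ml. H1f3 had 8.95 and 9.08 against 11.84 and 12.05 (ratio -2.93 ± 0.055), with -2.21 and -2.14 at the doses, but its other probe read -0.04. H1f5 read -2.54 ± 0.072 and H1f1 -2.09 ± 0.044, and H1f2 at -0.99 did not pass. Of the core histones H4c4 (-2.21), H4c6 (-2.15), H4c1 (-2.15), H4f16 (-1.99) and H4c14 (-1.90), all of them H4 genes, and H2ac4 (-1.25) passed. Under median centring H4c6, H4c1, H4f16, H4c14 and H2ac4 fell short of the size on at least 1 array. Copies of 1 histone differ little, so their probes may share signal, and the list was chosen after its values were seen. None of 23 DNA replication genes passed the size (median 0.04), and of 22 mitosis genes the kinase gene Aurka (1.32) was higher and 0 were lower (median 0.39, with 18 above 0 on both arrays).

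Of the linker histone genes H1f1 to H1f5, 4 share a promoter string, and their stretches are shown because H1f2 carries it with a ratio that did not pass. Capitals mark AAACACA, known as the H1 box. The stretches are from RefSeq on GRCm38.p6 at chr13:23622637-23622703 (minus strand) for H1f4, chr13:23554880-23554946 (plus strand) for H1f3, chr13:21780706-21780772 (minus strand) for H1f5 and chr13:23738665-23738731 (plus strand) for H1f2.
H1f4: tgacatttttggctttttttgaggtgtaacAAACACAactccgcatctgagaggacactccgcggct
H1f3: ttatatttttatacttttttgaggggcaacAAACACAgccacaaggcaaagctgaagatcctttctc
H1f5: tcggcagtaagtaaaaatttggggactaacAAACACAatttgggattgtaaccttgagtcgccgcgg
H1f2: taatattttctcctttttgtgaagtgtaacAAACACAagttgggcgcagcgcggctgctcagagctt
The string occurs in 6.25% of all promoter windows on either strand. Of the genes H1f1 to H1f5 the 4 with a match had a median ratio of -2.74, and H1f1, with no match in its window, read -2.09.

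Germ line and imprinted genes were among the highest features. Stag3, a cohesin subunit of meiosis, had 11.16 and 11.22 against 6.75 and 6.50 (ratio 4.57 ± 0.22, and 6.87 with processed signals), Dkkl1, an acrosome gene, read 3.75 ± 0.14, and Psma8, a proteasome subunit of the testis, 3.44 ± 0.43. All 3 lay within 0.4 of 0 at both doses, but for Stag3 and Psma8 no RNA was well above background on those arrays. The next list was picked by gene name after its values were seen. It was made for Xlr and other X-linked germ cell genes, and its names also took in Slx1b and Slx4ip. Of its 11 tested genes 6 were higher (54.5%, against 2.51% over all features) and 0 lower (against 3.03%). Xlr4b was at least 11.1-fold higher and Xlr at least 9.23-fold higher, since the control was not well above background for either, and Spin2c read 3.38 ± 0.14. Of the X-linked Mage genes Maged2 (1.42) and Maged1 (1.31) passed. On the array 18 of the 29 list members were not tested because neither RNA was well above background on both arrays. Xlr and Xlr4b were tested through their signal in Pax5sz2 alone. This filter raises the share of higher genes in the list, so the share does not measure enrichment. Of 18 imprinted genes, which are transcribed from 1 parental copy, 5 were higher (27.8%) and 1 lower (5.56%), beside the same shares over all features. Dlk1, a Notch-like membrane protein gene, had 9.82 and 9.87 against 7.15 and 6.77 (ratio 2.89 ± 0.31) and its other probe read 4.21, but it had ratios of -1.45 and -1.44 at 10 and 300 ng/ml. The growth factor gene Igf2 had 14.85 on both arrays against 12.11 and 12.30 (ratio 2.64 ± 0.14), and H19, the noncoding RNA beside it, 10.81 and 10.87 against 8.81 and 8.99 (ratio 1.94 ± 0.080). Mest (1.42) and Igf2r (1.29) were higher, and the adaptor gene Grb10 lower at -1.91 ± 0.036 (its other probe -0.49). The control label read 8.90 for H19 on the Pax5sz2 arrays and 7.77 and 7.74 on the 10 and 300 ng/ml arrays, and for Dlk1 6.96 against 8.03 and 8.14.

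Several other genes had large ratios with no list behind them. Casp1, the protease that matures interleukin 1 beta, read 4.16 ± 0.16 (11.83 and 11.52 against 7.78 and 7.25), the sodium-proton exchanger gene Slc9a2 4.18 ± 0.14, and Rangrf 4.05 ± 0.12. Prdm16, a zinc finger regulator of stem cells and brown fat, was lower at 6.78 and 7.17 against 10.96 and 11.18 (ratio -4.10 ± 0.12), with 0.12 and 0.04 at the doses. The light chain kinase gene Mylk (-2.83 ± 0.072), the phosphodiesterase gene Pde4b (-2.79 ± 0.21), the muscle LIM gene Csrp3 (-2.76 ± 0.18) and Bach1, a repressor of heme-responsive genes (-2.65 ± 0.22), were also lower. For Stra6 (-2.75 ± 0.81) and Srrm3 (-2.48 ± 0.43) the control read 9.40 and 9.47 here and between 12.93 and 13.24 on the 10 and 300 ng/ml arrays, so the level of the control label was not the same for them. Srrm3 also had 2 other probes between -0.05 and 0.04. Over all features the mean control level differed by at least 1 log2 unit between the Pax5sz2 arrays and the 10 ng/ml arrays for 69 of 18592 features, 16 of them past the size in Pax5sz2, and between the Pax5sz2 and 300 ng/ml arrays for 164 of 18422, 18 of them past it.

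Adipocyte genes and a few stromal genes were higher beside these changes. Of 11 adipocyte genes 4 were higher (Fabp4 1.83, Adipoq 1.5, Lpl 1.5 and Pparg 1.13) and 0 lower, 36.4% higher against 2.51% over all features, with a median of 0.96, against medians of 0.70 and 0.49 at 10 and 300 ng/ml. Fabp4, a fatty acid carrier, had 13.29 and 13.21 in Pax5sz2 and 11.26 and 11.57 in the control. OP9 stromal cells are known to form adipocytes. Of 28 stromal genes 4 were higher (14.3%) and 2 lower (7.14%), with a median of 0.16. At 10 and 300 ng/ml the stromal medians were the larger ones, 0.66 and 0.80, with 4 and 8 genes higher and 0 lower. The chemokine gene Cxcl12 (1.78 ± 0.12) and the collagen gene Col5a2 (2.75 ± 0.021) were higher, the collagen genes Col1a1 and Col1a2 read 0.18 and 0.01, and Serpinf1 (-1.25) and Acta2 (-1.07) were lower. Pparg, Serpinf1, Acta2 and Vcam1 did not pass under median centring. Serpinf1, Acta2, Sparc and Vcam1 did not pass with the mean over probes. All 5 adipocyte markers were well above background in both RNAs, with summed levels of 13.58 and 13.47 in Pax5sz2 and 11.69 and 11.89 in the control, and without Fabp4 of 11.13 and 10.87 against 9.73 and 9.55. For the 10 stromal markers these sums were 15.15 and 15.20 against 14.29 and 14.34, and without Cxcl12 14.04 and 14.15 against 13.85 on both arrays, and Lum was not well above background in the control. The part of the feeder layer in these ratios and in all the others was not tested.

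**Figure D4:**
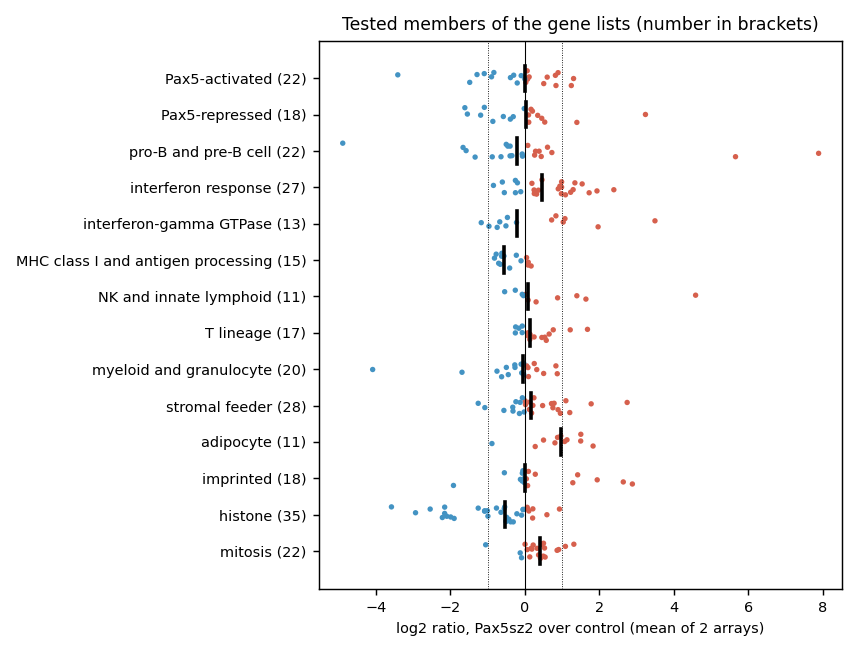
Each point is 1 tested gene of a list, at its mean log2 ratio of Pax5sz2 over control (x axis), with the list's median as a black bar, its number of tested genes in brackets and dotted lines at 2-fold. Medians run from -0.56 for class I and antigen processing (-0.04 under median centring, not drawn) to 0.96 for adipocyte genes. Dntt, Fcgr3 and Blnk lie far left of lists whose medians are near 0.

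The 1031 features past the size were then separated by their ratios in clone 4 with doxycycline. Shared features passed the same size in the same direction at 10 or at 300 ng/ml. There were 90 higher and 183 lower ones, 273 in all, where 0.651% of tested features were higher and 1.31% lower at 10 ng/ml and 1.41% and 2.46% at 300 ng/ml. All comparisons use RNA of the same control label, so a reading of the control alone can place a feature on the same side in each. Features with ratios within 0.5 of 0 at both doses numbered 193 higher and 128 lower, 321 in all. The share of all tested features that lie this near 0 at both doses was not counted. Whether features past the size were near 0 more or less often than others is thus not known. Of the 193, 30 were in no RNA well above background on the dose arrays. The opposite side was taken by 21 higher and 5 lower features, and 163 and 248 lay in between. Among features with a gene symbol the shared class held 82 higher and 114 lower genes and the class near 0 held 166 and 90. With the 1000 ng/ml arrays, 23 of the higher and 7 of the lower features were on the same side as labelled, and 13 and 73 with the sign of that pair turned. At that dose 2.09% of tested features were higher and 0.686% lower as labelled. The direction of that pair is not settled, since its ratios correlated with those at 300 ng/ml at r = -0.360 (Cy5) and -0.460 (Cy3) across all probes, so it was left out of the separation.

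**Figure D5:**
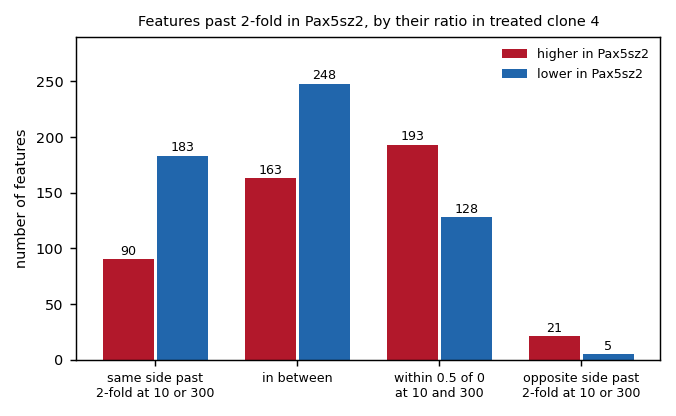
Number of features past 2-fold in Pax5sz2 (y axis), higher in red and lower in blue, by their ratio in clone 4 at 10 or 300 ng/ml doxycycline. Of the higher features 193 are near 0 and 90 shared, and of the lower ones 128 are near 0 and 183 shared.

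The genes of the shared class with the highest ratios were Ifi206, Iigp1, Phyh, Plaat3, Lrrn3, the Pax5 clone probe, Col5a2, Arl15, Snai2 and Usp18. Phyh, an enzyme of branched fatty acid breakdown, read 3.25 ± 0.21 with 0.80 and 1.21 at the doses, and Plaat3, a phospholipase, 3.21 ± 0.13 with 1.26 and 1.75. Arl15, a small GTPase gene, had nearly the same ratio in the 3 comparisons, 2.69 ± 0.0059 in Pax5sz2 and 2.48 and 2.39 at the doses, while its other probe read 0.15 in Pax5sz2. Among the lowest shared genes were Fcgr3, H1f4, H1f3, Stra6, Rapgef6, Mamdc2, Nr2c2, Srrm3 and Baz2a. Nr2c2, an orphan nuclear receptor gene, read -2.56 ± 0.28 with -1.69 and -1.44 at the doses, and its other probe read -0.98. The class near 0 was led by Vpreb1, Igll1, Klrd1, Stag3, Vpreb2, Casp1, Rangrf, Dkkl1, Xlr4b and Psma8 on the higher side and on the lower side by genes that include Prdm16, Cd44, Nfatc3, Dbx1, Tmem267, Camk2n2, Chtf8 and Trmt9b. For 6 of the 10 on the higher side (Vpreb1, Igll1, Klrd1, Stag3, Xlr4b and Psma8) no RNA was well above background on the dose arrays, so that their ratios near 0 lie between readings at background. The lower genes named had ratios from -4.10 to -1.91.

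The difference between Pax5sz2 and the 10 and 300 ng/ml samples was tested with limma over 19800 features, with 1 averaged value per comparison, which leaves 1 residual degree of freedom. No feature passed a Benjamini-Hochberg adjusted p of 0.05 in limma, and the smallest adjusted p was 0.0968. At an unadjusted p below 0.05 there were 3766 features, 2074 higher and 1692 lower. The smallest p belonged to Vpreb1, whose ratio was 7.70 ± 0.10 (SE) above the mean of the doses, with a limma adjusted p of 0.0968. Stag3 (4.59 ± 0.10), Klrd1 (4.61 ± 0.11), Casp1 (4.34 ± 0.10), Dlk1 (4.33 ± 0.10), Vpreb2 (4.20 ± 0.10) and Igll1 (5.67 ± 0.14) had the same adjusted p. On the lower side Prdm16 (-4.17 ± 0.11, limma adjusted p 0.106) and Ifi202b (-5.08 ± 0.16, limma adjusted p 0.116) came first. Lars2, a mitochondrial leucyl-tRNA synthetase gene, was among the lowest in this difference (-2.76 ± 0.11) with a ratio of -0.52 in Pax5sz2 against 2.21 and 2.27 at the doses. These SEs come from the difference of 2 doses and carry no spread of Pax5sz2 or of the control. Set against the control with the same borrowed spread, 394 features were higher (1.99%) and 477 lower (2.41%) at a limma adjusted p below 0.05, and 622 of the 871 were past the size on both arrays. The smallest adjusted p was 0.0462, and with trended and robust moderation in limma, or with the 1000 ng/ml pair added as labelled, 0 features passed.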

How the data were processed

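In all, 8 dual-colour Agilent mouse arrays were used, 2 of them for Pax5sz2. Scanner files hold, per the file headers, mean spot and median background intensity per channel, with no normalization, and a log10 ratio of processed signals, made with Feature Extraction 10.5.1.1 on the mm8 annotation. The deposited series matrix holds the same log10 ratios, turned to the named RNA, to within 5e-06. Agilent Feature Extraction is also the tool that the submitters' processing notes name. The number of arrays limits the precision.

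In R 4.3.3 with limma 3.58.1 and the package data.table (1.17.8), background was corrected by normexp (offset 50), and deposited intensity values were turned to log2 ratios by loess with control spots at weight 0. Outlier spots (37 and 39 on the Pax5sz2 arrays) were left out, and 0 spots were saturated. Of 41174 probes, 23374 were named by accession and 9652 by symbol or synonym through a RefSeq table, and 8148 kept their own name. A gene is read by its brightest probe. Channel levels were scaled between arrays by Aquantile. Tested features passed the call of well above background on both Pax5sz2 arrays for 1 RNA, or, for the fits, in 1 of the 3 comparisons. A ratio against a dim RNA is a bound against that array's detection level. The 2 arrays of a pair share their RNAs and were averaged to 1 sample, and the limma tests are two-sided. Tested on simulated data with changes well past the size, the steps recovered most of them, and changes near the size were not simulated. Figures used Python 3.11.15, matplotlib 3.10.9 and pandas 2.3.3.

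The members, the 24 gene lists and the rules were chosen with earlier results of these data known. Named were Pax5, the 20 highest and 20 lowest genes past the size, up to 6 members past it per list, the 10 highest and 10 lowest genes of the shared and near 0 classes, and the 10 smallest p per direction. Some genes that this rule names are not reported here. The 6 further lists, and the genes named from them or outside this rule, were chosen after their values were seen. Alternatives were median centring, Agilent's processed signals, the series matrix, no filter on dim probes, means over probes, single arrays, a 1.5-fold size, the 1000 ng/ml pair added, trended robust moderation and single arrays as samples. The 1000 ng/ml arrays used a multiplier of 2.6 for spots well above background where the others used 13.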

Additional observations from a re-analysis of the deposited data

Results flagged for a closer look

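In all, 22 named genes were past 2-fold in Pax5sz2 on both arrays and past 2-fold the other way on both arrays at 10 or 300 ng/ml doxycycline. They were 18 of the 407 higher and 4 of the 389 lower genes. Over all tested features 1.31% and 2.46% were lower at 10 and 300 ng/ml, and 0.651% and 1.41% were higher. The 4 on the lower side are thus no more than such shares give. The difference between Pax5sz2 and the doses was tested with limma, and none of these genes had an adjusted p under 0.05. The smallest was 0.0968, for Dlk1. The comparisons share their control label.

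On the higher side in Pax5sz2 were Ccr2 (3.24), Dlk1 (2.89), the matricellular gene Ccn3 (2.77), the T cell receptor segment Trbv14 (2.74), the exchange factor gene Rasgrp3 (2.14), Pdia5 (1.93), Ankrd22 (1.91), the lymphoid progenitor antigen gene Ly6d (1.84), Nkg7 (1.64), Khdc1a (1.64), Cox6a2 (1.61), Ndrg2 (1.46), Crisp1 (1.42), Jchain (1.40), Nrgn (1.29), Cd7 (1.22), Prss3 (1.21) and Klhl30 (1.1). At 300 ng/ml their ratios ran from -3.54 (Nrgn) to -1.26 (Ccn3 and Khdc1a). Pdia5 read -2.05 and -2.43 at the doses, but its control label averaged 7.50 on the Pax5sz2 arrays and 10.60 and 10.55 on the 10 and 300 ng/ml arrays. The other probe of Prss3 read 0.13.

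On the lower side were Blnk (-3.41), Ttll11 (-1.37), Trib1 (-1.22) and Ptprz1 (-1.06), with ratios at 300 ng/ml of 2.62, 1.92, 1.14 and 1.78. For Ptprz1 the control label averaged 17.48 on the Pax5sz2 arrays and 15.57 and 16.46 on the 10 and 300 ng/ml arrays. The other probe of Ptprz1 read 0.29, and Ptprz1 did not pass the size with median centring, processed signals, the series matrix or the mean over probes.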

How the results depend on the processing

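With median centring in place of loess, the lower features went from 564 to 202, the shared ones from 273 to 107 and those called against the control from 871 to 2320, and the median of all tested features moved from 0.03 to 0.18. Of the features called under loess, 418 of 467 higher and 192 of 564 lower ones still passed. Agilent's processed signals gave 1088 higher, 943 lower, 694 shared, 244 called against the doses and 2498 against the control, and the series matrix 996, 1068, 718, 280 and 2494. A size of 1.5-fold gave 1284 higher, 1510 lower, 1147 shared and 1003 near 0. With the 1000 ng/ml pair in the fit as labelled, 0 were called against the control, and with its sign turned 12 against the doses and 82 against the control. Trended robust moderation called 0 against the control. Single arrays as samples, which count technical arrays as replicates, called 2823 and 5546. The cause of these moves was not tested. No filter on dim probes and the mean over probes kept these counts within 1.5 times, with 369 higher and 413 lower for the latter. Leaving out 1 array gave 555 to 619 higher, 652 to 822 lower, 297 to 332 shared, 415 near 0, 0 against the doses, 903 to 1109 against the control and 72 to 73 calls in the lists, where both arrays gave 57. Of 139 genes followed across settings, 103 past the size stayed past it in all, 36 did not in at least 1, and 0 changed sign. Medians turned sign under median centring for the pro-B, mature B, myeloid, mast cell, GTPase, glycolysis, sex chromosome and amino acid stress lists, and for the last 2 also with processed signals, which put the median of all features at 0.16. With the mean over probes the medians of the Pax5-activated and Ifi200 lists turned sign. With no filter on dim probes those of the Pax5-repressed and imprinted lists did. No paired analysis was possible because each comparison is 1 averaged sample and replicate numbers only mark the dye orientation of arrays with the same RNAs.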

Other observations

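Over all features 2.51% were higher and 3.03% lower, beside which the counts below stand. Of 19 amino acid stress genes, Asns (1.65 ± 0.084) and Sesn2 (1.26) were higher in Pax5sz2, with the other probe of Sesn2 at -0.04, and 0 were lower (median -0.02). Of 17 genes of cytokine receptor and STAT5 feedback signalling, 0 passed the size, and 11 had ratios under 0 on each array (median -0.40, and -0.03 under median centring). Of 19 glycolysis, 11 erythroid and 8 mast cell genes 0 passed. Of 23 p53 target and apoptosis genes Sesn2 was higher and Bcl2l11 lower (-1.59 ± 0.24). Bcl2l11 did not pass under median centring, nor Sesn2 with the mean over probes. Mycn (1.46) was the 1 higher gene of 10 stem and progenitor genes, and Ccr9 the 1 of 10 dendritic cell genes. The other probe of Mycn read 0.35, and Mycn did not pass with the mean over probes. Of 8 tested sex chromosome genes 0 passed, with Kdm5d at 0.47, Eif2s3y at -0.04 and Ddx3y at -0.77.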
